A study of Homo sapiens with 6 samples.

Results

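The HOX cluster genes were followed in A375, an established human melanoma cell line, sorted by aldehyde dehydrogenase (ALDH) activity. They were taken as the rows with the biotype protein_coding whose name is HOXA, HOXB, HOXC or HOXD followed by digits only. This rule found 39 members among 57914 rows, of which 19779 were protein coding: 11 in HOXA, 10 in HOXB, 9 in HOXC and 9 in HOXD. Cells grown in DMEM with FCS were stained with Aldefluor, a dye that ALDH enzymes make fluorescent, and the 5% with the highest signal (ALDH_High) and the 5% with the lowest (ALDH_Low) were collected. Each group has 3 libraries of stranded mRNA from bulk RNA, and no untreated or unsorted library was analysed here. All libraries come from 1 cell line. The labels do not say that the libraries of a group came from separate cultures, so the p-values measure only the spread between these libraries, which may be technical.

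HOX genes encode homeodomain transcription factors that give cells positional identity along the body axis. They lie in clusters whose order along the chromosome follows the order of their expression domains, with low paralog numbers anterior and high numbers posterior. HOX proteins bind DNA together with TALE homeodomain cofactors of the PBX and MEIS families. Retinoic acid activates low-numbered genes in the embryo, Polycomb complexes keep silent HOX genes repressed and Trithorax complexes keep active ones on. ALDH1A enzymes, which the Aldefluor dye reads in part, make retinoic acid. Adult cells, melanocytes and melanomas among them, keep a HOX pattern that reflects their origin.

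On GRCh38 with GENCODE 44, the HOXB members span chr17:48528526-48728750, the HOXC members chr12:53938831-54056030 and the HOXD members chr2:176092721-176190907; the HOXA members lie on chromosome 7. Total counts per library lay between 26692868 and 37830603. Of the 39 members, 35 had enough counts to be tested with edgeR among 17047 genes. HOXB1 had 0 counts in every library, where 3 counts correspond to between 0.0793 and 0.112 CPM (counts per 1000000), a limit that covers counting error only. HOXD3, HOXD11 and HOXD12 were not tested either, with at most 11 counts in any library.

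Levels between genes are given in TPM (transcript abundance corrected for length and scaled to the same total in each library). By cluster, 9 of 10 HOXB members, 9 of 9 HOXC members, 6 of 11 HOXA members and 3 of 9 HOXD members had at least 1 TPM in every library. Another 10 members were below 1 TPM in every library, and HOXA2 and HOXA9 lay on both sides of it. The A375 libraries thus held both low-numbered and high-numbered HOX transcripts: HOXB2, HOXC10, HOXB7, HOXB8 and HOXA10 had the highest mean TPM over the 6 libraries, at 87.3, 39.5, 28.8, 23.6 and 16.4.

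**Figure D1:**
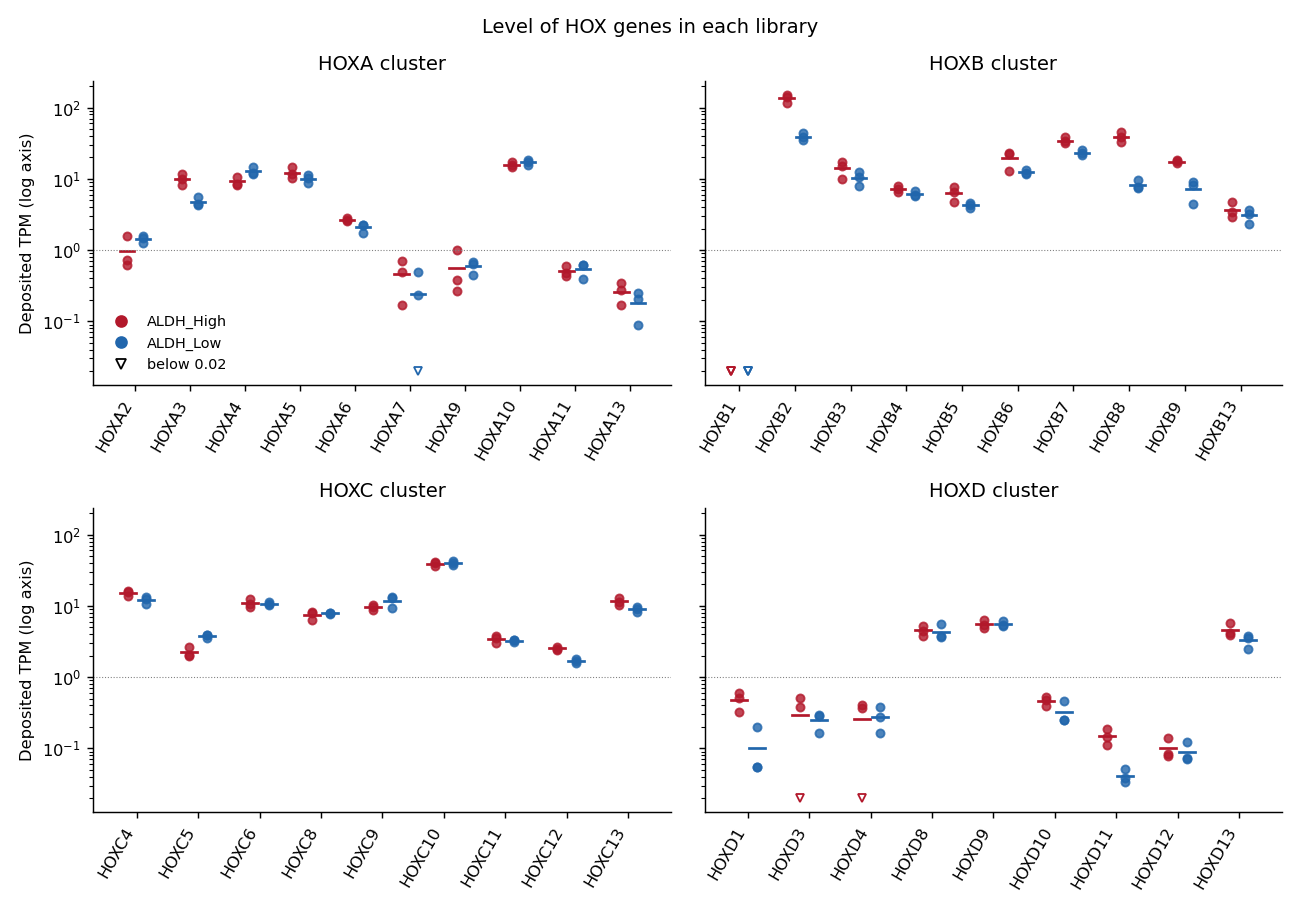
TPM of HOX members in each of the 6 libraries on a log axis, by cluster and paralog number, with lines at the group means and open triangles for values below 0.02 TPM. HOXB2 and HOXB8 show the ALDH_High points well above the ALDH_Low points, while HOXC10 overlaps between the groups.

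Comparing the sorted groups asks which HOX transcripts go with high or low ALDH activity. In ALDH_High, 6 members were higher (HOXB2, HOXB7, HOXB8, HOXB9, HOXA3 and HOXD1) and 1 was lower (HOXC5) at an adjusted p below 0.05 in edgeR's quasi-likelihood test. These 7 of 35 tested members make 20%, beside 20.6% of all genes tested and 22.2% of the protein_coding genes tested, so the share called is near the background. Higher calls made up 10.8% and lower calls 9.83% of all genes, and 12.3% and 9.82% of the protein_coding genes. The calls were uneven by cluster: 4 of 9 tested members passed in HOXB, 1 of 11 in HOXA, 1 of 9 in HOXC and 1 of 6 in HOXD. The difference in calls between clusters was not tested.

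The median log2 fold change (ALDH_High over ALDH_Low) of the tested members was 0.25, beside -0.01 over all genes. By cluster the median was 0.52 in HOXB, 0.24 in HOXD and -0.02 in HOXC, and in HOXA 5 of 11 members had a value above 0. All 9 tested HOXB members had a log2 fold change above 0, from 0.19 to 2.19, although that of HOXB13 fell to -0.06 without ALDH_High library 1. By position, 3 of 6 tested members of paralog groups 1 to 3 were higher, 2 of 15 of groups 4 to 8 were higher and 1 lower, and 1 of 14 of groups 9 to 13 was higher. Over all genes tested, 10.8% were higher and 9.83% lower. The 3 in groups 1 to 3 were HOXB2, HOXA3 and HOXD1, the last with at most 20 counts in any library. The difference in calls between positions was not tested. TPM of the groups did not overlap for 14 of the 35 tested members (12 higher and 2 lower in ALDH_High), or 40%, beside 37.4% of all genes (20.2% higher and 17.1% lower). In bulk RNA, more cells with a transcript and more of it per cell cannot be told apart.

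**Figure D2:**
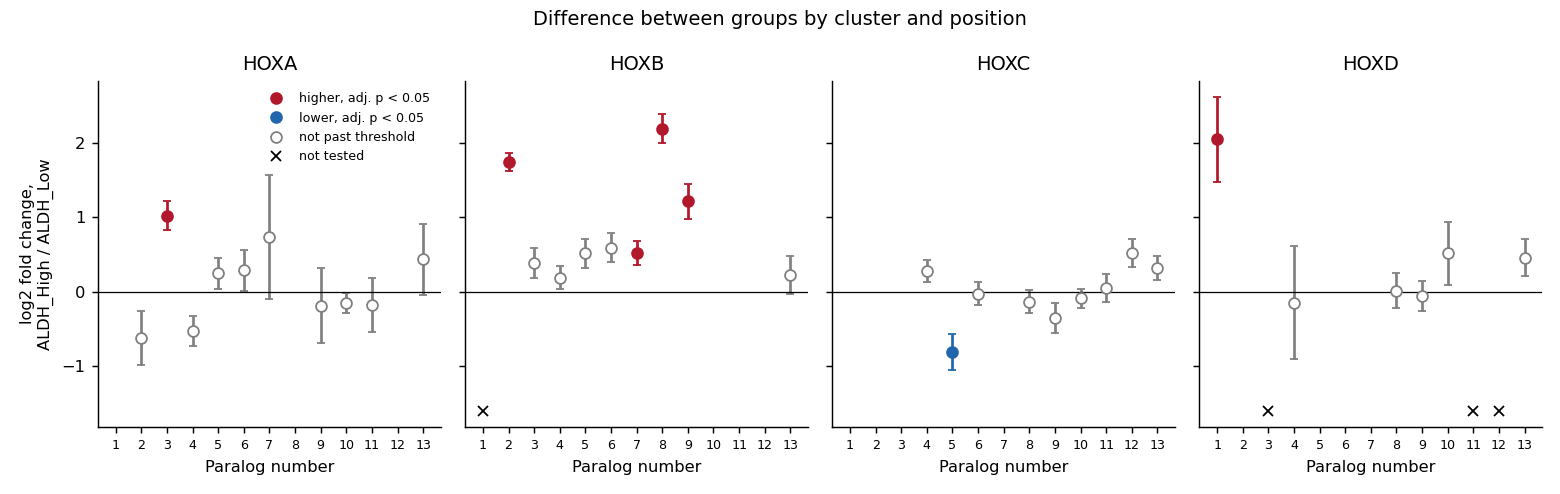
Log2 fold change of ALDH_High over ALDH_Low with its standard error for HOX members, by cluster and paralog number; filled points passed an adjusted p of 0.05, and crosses mark members that were not tested. The largest positive values are HOXB8 at 2.19, HOXD1 at 2.05 and HOXB2 at 1.74, and the filled point below 0 is HOXC5 at -0.81.

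In HOXB, HOXB2, HOXB7, HOXB8 and HOXB9 were higher in ALDH_High, and the genes between them did not pass. HOXB2 (ENSG00000173917, chr17:48540894-48545109, minus strand), a hindbrain patterning gene, had 116, 151 and 139.8 TPM in ALDH_High and 43.9, 39.0 and 34.7 TPM in ALDH_Low. All ALDH_High libraries lay above all ALDH_Low libraries. The means were 135 ± 17.9 and 39.2 ± 4.60 TPM (SD, n = 3), a 3.33-fold difference (log2 fold change 1.74 ± 0.12 SE, edgeR adjusted p = 1.21e-05). It was the HOX member with the highest level in ALDH_High, apart from the next one, whereas in ALDH_Low its range overlapped that of HOXC10.

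HOXB8 (chr17:48611377-48615292), which is known for its role in myeloid progenitors and in the nervous system, had 45.7, 38.0 and 32.9 TPM in ALDH_High. In ALDH_Low it had 9.57, 7.53 and 7.74 TPM. The groups were apart, with the lowest ALDH_High library more than any ALDH_Low library, and the fold was 4.56 (log2 fold change 2.19 ± 0.19 SE, edgeR adjusted p = 4.35e-05). HOXB8 thus stood at rank 3 of the members by mean TPM in ALDH_High and at rank 13 in ALDH_Low. Its neighbour HOXB9 (chr17:48621156-48626358), which patterns the thorax, had 16.4, 17.5 and 18.2 TPM in ALDH_High and 4.47, 8.31 and 8.90 TPM in ALDH_Low. The groups did not overlap, with ALDH_Low library 1 the lowest of all, and HOXB9 was 2.32-fold higher (log2 fold change 1.21 ± 0.23 SE, edgeR adjusted p = 0.00458).

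HOXB7 (chr17:48607232-48633572), a homeobox gene long studied in melanoma growth, had 38.2, 33.5 and 31.3 TPM in ALDH_High and 23.1, 21.5 and 25.2 TPM in ALDH_Low. Every ALDH_High library was above every ALDH_Low library, by a smaller margin than for HOXB8: the log2 fold change was 0.52 ± 0.16 SE (edgeR adjusted p = 0.0428). Leaving out any of 5 libraries (all but ALDH_High 3), or using upper-quartile factors, ended this call, with adjusted p between 0.0552 and 0.151 in these settings.

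The middle of the HOXB cluster showed smaller differences that did not pass. HOXB6 had 12.8, 22.2 and 23.1 TPM in ALDH_High and 12, 13.1 and 11.7 TPM in ALDH_Low. The groups overlapped because ALDH_High library 1 lay among the ALDH_Low libraries; the log2 fold change was 0.59 ± 0.19 SE (edgeR adjusted p = 0.0517). HOXB3 had 9.91, 17.1 and 15.3 TPM against 10.6, 12.6 and 7.998 TPM, with ALDH_High library 1 again low, and a log2 fold change of 0.39 (edgeR adjusted p = 0.208). HOXB5 had 4.69, 6.58 and 7.71 TPM against 4.62, 3.83 and 4.22 TPM, with a log2 fold change of 0.52 (edgeR adjusted p = 0.0949). ALDH_High 1 stood apart from the other ALDH_High libraries on the second principal component of the whole table, which held 14.5% of the variance, at 49.1 against -22.0 and -32.5. Without that library HOXB6 (log2 fold change 0.80, adjusted p = 0.00253), HOXB5 (0.67, 0.0232) and HOXB3 (0.56, 0.0430) passed in edgeR. HOXB6 passed in 5 of 15 alternatives, among them DESeq2 size factors (adjusted p = 0.0494), no filter on low counts (0.0132) and the DESeq2 Wald test (0.0174). Whatever sets that library apart was not tested. HOXB4 (0.19) and HOXB13 (0.23), a posterior gene used as a prostate marker, had adjusted p of 0.434 and 0.591.

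Summed over the cluster, HOXB transcripts had 256, 296 and 278 TPM in ALDH_High and 119, 115 and 108 TPM in ALDH_Low. HOXA sums were 58.6, 51.7 and 53.7 TPM against 56.1, 50.8 and 48.2 TPM, and HOXC sums were 105, 94.3 and 107 TPM against 100.01, 99.1 and 102 TPM. The HOXB sums of the groups were thus apart, whereas those of HOXA and HOXC overlapped. HOXD sums were 17.2, 15.7 and 16.5 TPM against 16.7, 13.3 and 12.8 TPM. HOXB therefore held 58.7%, 64.7% and 61.0% of all HOX TPM in ALDH_High and 40.7%, 41.3% and 39.9% in ALDH_Low. Without HOXB2 the HOXB sum was still 140.4, 145 and 138 TPM in ALDH_High against 74.8, 76.1 and 73.8 TPM in ALDH_Low. These sums are descriptions with no test.

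**Figure D3:**
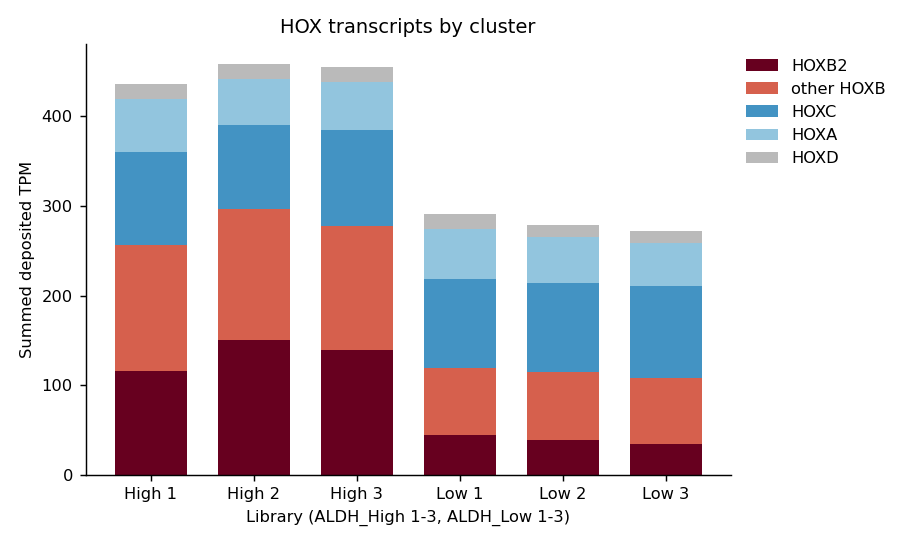
Summed TPM of the HOX members in each library, stacked as HOXB2, the other HOXB members, HOXC, HOXA and HOXD. The whole stack is 437 to 458 TPM in ALDH_High and 272 to 291 TPM in ALDH_Low, and the HOXB parts account for most of the gap.

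In HOXA, HOXA3 was the member past the threshold. HOXA3 (chr7:27106184-27152583, minus strand), which patterns the pharyngeal arches and thymus, had 11.7, 8.13 and 9.96 TPM in ALDH_High and 5.48, 4.47 and 4.31 TPM in ALDH_Low. The groups were apart, and HOXA3 was 2.03-fold higher (log2 fold change 1.02 ± 0.20 SE, edgeR adjusted p = 0.00479). HOXA4 (chr7:27128507-27130780), its neighbour, which lies within the span of HOXA3, went the other way: 10.7, 8.53 and 8.31 TPM in ALDH_High and 14.8, 11.6 and 12.1 TPM in ALDH_Low. All ALDH_High libraries were below all ALDH_Low libraries, but the log2 fold change of -0.52 ± 0.20 SE did not pass (edgeR adjusted p = 0.0958). Without ALDH_High 1 it did, at -0.69 (adjusted p = 0.0202). In GENCODE 44, 31.3% of HOXA4 exon bases are shared with another gene on the same strand, and 17.3% of HOXA3 exon bases lie opposite HOXA-AS2 or HOXA-AS3. How counting used strand is not given in the sources used here, so reads of such pairs cannot be told apart. HOXA10, a posterior gene of the uterus and limb, had 14.6, 17.4 and 15.5 TPM against 17.4, 18.2 and 15.4 TPM, and HOXA5, a lung patterning gene, had 14.6, 10.4 and 11.8 TPM against 11.1, 8.78 and 10.1 TPM. Both overlapped between the groups, with adjusted p of 0.469 and 0.466. HOXA2, HOXA6, HOXA7, HOXA9, HOXA11 and HOXA13 had adjusted p from 0.281 to 0.847 and means of at most 2.66 TPM in either group. Of these, HOXA6 had groups apart, higher in ALDH_High, and the others overlapped.

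The start of HOXA3 farthest upstream in RefSeq (GRCh38.p14) has its 250 preceding bases at chr7:27152584-27152833 on the minus strand. These are printed because HOXA3 is one of the members past the threshold that the promoter table covers, and capitals mark letters matching CCAAT or TATAAA on either strand.
HOXA3: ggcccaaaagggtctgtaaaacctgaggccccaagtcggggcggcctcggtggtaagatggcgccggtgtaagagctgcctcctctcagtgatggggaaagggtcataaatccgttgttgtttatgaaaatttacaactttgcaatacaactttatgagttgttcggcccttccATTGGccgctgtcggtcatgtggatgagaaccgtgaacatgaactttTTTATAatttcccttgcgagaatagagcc
Both matches are on the reverse strand, CCAAT as ATTGG at 76 bases and TATAAA as TTTATA at 29 bases before the start. The whole window is also covered by an exon of the opposite-strand HOXA-AS3. RefSeq windows were found for 20 of the 39 members, 26 windows of 250 bases in all, and both strands were searched with overlaps allowed. CCAAT was in 17 of the 26 and in 32.0% of 34943 windows of all genes, TATAAA in 5 and 10.8%, the HOX-PBX type letters TGATNNAT in 3 and 6.49%, and AGGTCA, letters bound by retinoic acid receptors, in 0 and 12.1%. Only the letters as written, with N for any base, were searched, so a count of 0 does not cover other forms of a motif. HOXA3 and HOXA10 each have multiple windows, and HOXB1 is the only HOXB member with one. The counts therefore do not weigh the members evenly. A match is a description of letters and not a binding site. HOXB2, HOXB7, HOXB8 and HOXB9 have no entry, and the HOXC5 window, which is the same as that of HOXC4, is not printed.

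In HOXC, 8 of 9 members did not pass. HOXC10, a lumbar patterning gene, had 41.1, 36.2 and 39.6 TPM in ALDH_High and 37.5, 40.1 and 42.5 TPM in ALDH_Low. The groups overlapped (log2 fold change -0.09, edgeR adjusted p = 0.700), although it was the highest or second member by mean TPM in each group. HOXC4 had 15.6, 13.8 and 16.4 TPM against 12.6, 13.3 and 10.7 TPM, with groups apart but an edgeR adjusted p of 0.230. HOXC12 (log2 fold change 0.52, adjusted p = 0.0783) and HOXC13 (0.32, 0.197) also had groups apart without passing. HOXC6, HOXC8, HOXC9 and HOXC11 overlapped between the groups: their log2 fold changes ran from -0.36 to 0.05, none with an adjusted p under 0.258. HOXC5 (chr12:54033050-54035361, plus strand), a cervical patterning gene, had 2.66, 2.03 and 1.99 TPM in ALDH_High and 3.93, 3.86 and 3.53 TPM in ALDH_Low. All ALDH_High libraries were below all ALDH_Low libraries, and HOXC5 fell by 0.81 on the log2 scale (SE 0.24, edgeR adjusted p = 0.0363). In GENCODE 44, 67.3% of its exon bases are shared with same-strand genes, so this count is uncertain. Among those genes is a processed_transcript that is also named HOXC5. That transcript overlapped between the groups, at 1.95, 1.62 and 1.73 TPM against 1.39, 1.98 and 2.09 TPM (log2 fold change -0.09, edgeR adjusted p = 0.876). The call of the protein_coding HOXC5 was lost when any library but ALDH_High 1 was left out (edgeR adjusted p from 0.0866 to 0.134). It was also lost in both limma fits on log2(TPM + 1), at 0.0508 and 0.119.

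In HOXD, HOXD1 (chr2:176188668-176190907, plus strand), which acts in sensory neurons, had 0.603, 0.504 and 0.326 TPM in ALDH_High and 0.198, 0.0555 and 0.0552 TPM in ALDH_Low. The counts behind these are 19, 20 and 12 against 9, 2 and 2. The groups were apart by this measure, at low depth, and the log2 fold change was 2.05 ± 0.57 SE (edgeR adjusted p = 0.0296). Without ALDH_Low 1 the log2 fold change was 2.94. The call was lost without ALDH_High 1, ALDH_High 2, ALDH_Low 2 or ALDH_Low 3 (adjusted p up to 0.122) and with the DESeq2 Wald test (adjusted p = 0.0607). In GENCODE 44, 60.1% of HOXD1 exon bases lie opposite HAGLR and another gene.
Its 250 upstream bases in RefSeq (GRCh38.p14), chr2:176188418-176188667 on the plus strand, are shown for the same reason, with capitals marking CCAAT on the reverse strand 69 bases before the start.
HOXD1: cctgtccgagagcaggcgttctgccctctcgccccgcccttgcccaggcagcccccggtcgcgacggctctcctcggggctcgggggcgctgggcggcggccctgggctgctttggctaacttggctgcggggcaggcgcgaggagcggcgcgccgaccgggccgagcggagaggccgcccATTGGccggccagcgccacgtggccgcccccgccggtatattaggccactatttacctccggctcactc
Exons of HAGLR on the other strand cover 173 of these bases. HOXD8, HOXD9 and HOXD13, the HOXD members at 1 TPM or more in every library, had log2 fold changes of 0.02, -0.06 and 0.46 with adjusted p of 0.975, 0.874 and 0.246. HOXD13 had groups apart, higher in ALDH_High, while HOXD8 and HOXD9 overlapped. HOXD4 and HOXD10 were below 1 TPM, with adjusted p of 0.919 and 0.451. HOXD3 and HOXD4 are listed at 0 in ALDH_High 1. The posterior gene HOXD11 had 3, 3 and 5 counts in ALDH_High and 1, 1 and 1 in ALDH_Low, and HOXD12 had 2, 3 and 2 against 4, 2 and 2. Both were too low for a comparison.

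Neighbours were compared by the log2 ratio of their TPM, a choice made after the values were seen. Pairs followed the paralog number among members of a cluster with a mean of at least 1 TPM. Some pairs, such as HOXA6 and HOXA10, therefore have other members between them. Of 24 such pairs, 11 had ratios that did not overlap between the groups. TPM of single genes did not overlap for 37.4% of all genes tested, and no such count was made over other gene pairs. The count of 11 is therefore not read as a result about neighbours. With 3 against 3 libraries the smallest possible exact two-sided permutation p is 0.1. The HOXB8 to HOXB7 ratio was 0.26, 0.18 and 0.07 in ALDH_High and -1.27, -1.51 and -1.70 in ALDH_Low on the log2 scale. The HOXA4 to HOXA3 ratio was -0.13, 0.07 and -0.26 in ALDH_High and 1.43, 1.38 and 1.49 in ALDH_Low. Both ratios separated the groups, and by construction they repeat the HOXB8 and HOXA3 differences above. The HOXB9 to HOXB8 ratio, in contrast, overlapped between the groups.

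Noncoding transcripts of the clusters moved near some of these members. Of 13 tested, 1 was higher and 1 lower. HAGLR, which lies head to head with HOXD1, had 5.44, 3.995 and 3.93 TPM in ALDH_High and 1.85, 1.51 and 1.39 TPM in ALDH_Low. The groups were apart, with a log2 fold change of 1.45 ± 0.24 SE (edgeR adjusted p = 0.00225). HOTAIRM1, of the HOXA cluster, had 6.21, 5.74 and 5.86 TPM against 9.86, 8.48 and 11.2 TPM and fell by 0.78 on the log2 scale (SE 0.24, edgeR adjusted p = 0.0464). HOTAIRM1 missed the threshold in 6 of 15 alternatives. HOXB-AS1, which overlaps 3.54% of HOXB2 exon bases on the other strand, had a log2 fold change of 0.68 (edgeR adjusted p = 0.0528). HOTAIR, the noncoding RNA of HOXC, had 0.28 (edgeR adjusted p = 0.698).

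Outside the clusters, 3 of 18 tested flanking genes (16.7%, beside 20.6% of all genes) were higher and 0 were lower: SNX10 (log2 fold change 0.81, edgeR adjusted p = 0.0079), SKAP1 (1.66, 0.0421) and CBX5 (0.52, 0.00604). SKAP1 lies beyond HOXB1 and had at most 0.913 TPM; its call was lost in 10 of the 12 alternatives that tested it, among them leaving out any single library. CBX1, SNX11 and CALCOCO2, the other HOXB flanks at higher levels, had log2 fold changes of 0.13, 0.005 and 0.02.

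The related lists below were counted with the same fit. Of 9 TALE cofactors, 2 were higher and 0 lower (median log2 fold change 0.30). PKNOX2 had 5.80 ± 0.988 TPM in ALDH_High and 0.496 ± 0.185 TPM in ALDH_Low (SD, n = 3), with log2 fold change 3.48 ± 0.30 SE (edgeR adjusted p = 3.71e-05). MEIS3 had 0.79 (edgeR adjusted p = 0.0174) and lost its call without ALDH_High 2 or ALDH_Low 3 (adjusted p up to 0.0694), while MEIS1 (0.56) and PBX3 (0.30) did not pass. Of 27 Polycomb genes, 2 were higher and 2 lower (median 0.15): CBX2 (0.77, adjusted p = 0.00169) and JARID2 (0.63, 0.00646) against CBX7 (-0.84, 0.0363) and PCGF5 (-0.45, 0.0188). CBX7 lost its call in 8 of 15 alternatives (adjusted p up to 0.304), among them leaving out any library but ALDH_Low 3. PCGF5 lost it in 4 (up to 0.0800), without ALDH_High 2 or 3 or ALDH_Low 2 or 3. CBX2 and CBX7 encode chromodomain subunits that can take the same place in Polycomb complexes. EZH2, the histone methyltransferase, had 0.23 (edgeR adjusted p = 0.319).

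Of 15 genes listed as Trithorax or related to it, not all of them complex subunits, 4 were higher and 0 lower (median 0.19). These were KMT2D (0.39, edgeR adjusted p = 0.0255), ASH2L (0.45, 0.0338), MLLT3 (0.71, 0.0389) and KDM6B (0.59, 0.0439). Each of these lost its call in at least 4 of 15 alternatives. Of 13 tested retinoic acid genes, 2 were higher and 2 lower (median 0.16). ALDH1A3, a retinaldehyde dehydrogenase, had 279, 519 and 504 TPM in ALDH_High and 150, 182 and 165 TPM in ALDH_Low (log2 fold change 1.32, edgeR adjusted p = 0.000734). The groups were sorted with a dye that reads ALDH1A enzymes in part. This call, which counts in the share of its list, is therefore not independent of the sort. RXRG, a retinoid receptor, had 8.02 ± 1.39 TPM against 0.138 ± 0.0574 TPM (SD, n = 3; edgeR adjusted p = 5.6e-06). CRABP2, which carries retinoic acid, and CYP26B1, which degrades it, fell by 1.43 and 1.02 on the log2 scale (edgeR adjusted p = 0.00299 and 0.038). CYP26B1 overlapped between the groups in TPM and lost its call in 7 of 15 alternatives (adjusted p up to 0.276), among them leaving out ALDH_High 2, ALDH_High 3, ALDH_Low 1 or ALDH_Low 2. RARA, RARB and RARG had -0.27, 0.16 and 0.05 without passing. The members of these lists were read against the 20.6% of all genes called; their shares ran from 14.8% for Polycomb to 30.8% for the retinoic acid genes.

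**Figure D4:**
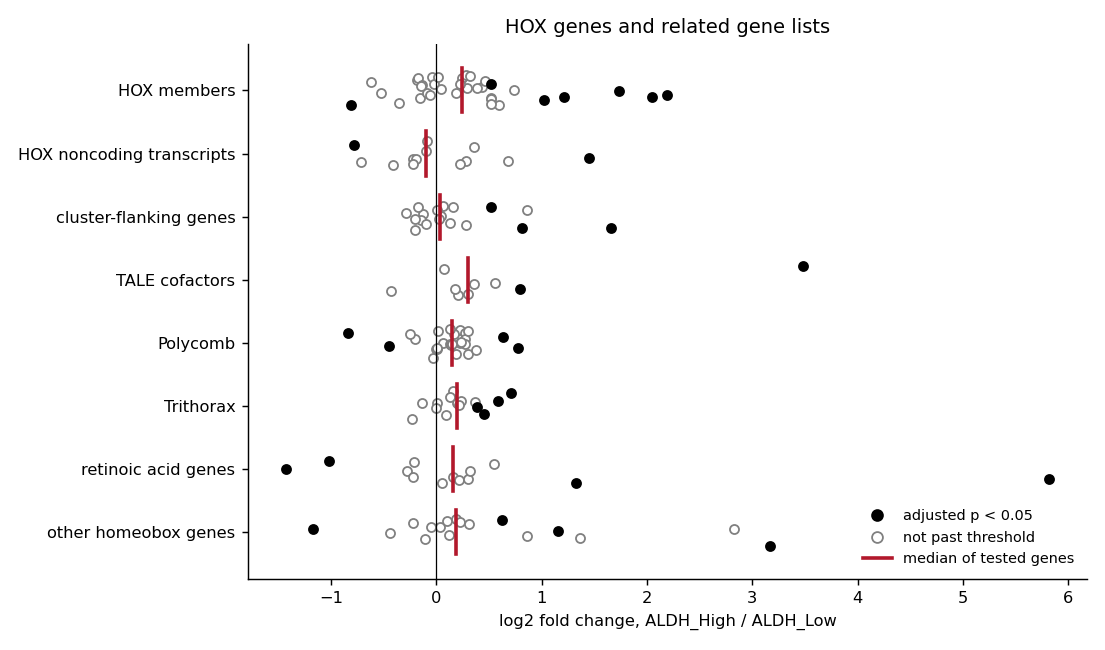
Log2 fold change of each tested gene by list (HOX members, noncoding transcripts, flanks, cofactors and regulators), with a red line at each median and filled points for an adjusted p below 0.05. The median is 0.25 for the HOX members and 0.30 for the TALE cofactors, and the points farthest to the right are RXRG and PKNOX2.

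Of 17 tested homeobox genes outside the clusters, 3 were higher and 1 lower (23.5% called, beside 20.6% of all genes): PRRX1 (3.17, edgeR adjusted p = 3.47e-06), MEOX2 (1.15, 0.000281) and EN2 (0.63, 0.0126) against MSX1 (-1.17, 0.000789). PRRX1, a mesenchymal and neural crest factor, had 38.0, 31.7 and 35.8 TPM in ALDH_High and 3.94, 3.68 and 3.72 TPM in ALDH_Low. The upstream HOX regulators CDX1, CDX2 and CDX4 were too low to be tested.

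Cell type markers moved with the groups, and their part in the HOX result was not tested. Of all genes tested, 20.6% were called. Of 12 melanocytic markers, 8 were tested: 5 were higher (SOX10, S100B, S100A1, MCAM and NES) and 1 was lower (MITF). All 12 summed to 899 to 964 TPM in ALDH_High and 298 to 330.3 TPM in ALDH_Low. The largest parts by mean were SOX10 (397 against 111 TPM) and MCAM (293 against 168 TPM). PAX3 had a log2 fold change of -0.22 (edgeR adjusted p = 0.359), and the pigment genes PMEL, MLANA, TYR, TYRP1 and DCT were below 1 TPM in every library. Of 6 epithelial markers, 4 were tested and 3 keratins were lower (summed 396 to 668 TPM against 1060 to 1634 TPM), with EPCAM and CDH1 below 1 TPM. KRT14 had 18.9 ± 3.45 against 12.2 ± 2.42 TPM (SD, n = 3), with groups apart and an edgeR adjusted p of 0.108. Of 6 fibroblast markers, 5 were tested and 0 passed (9.70 to 12.4 against 6.26 to 7.96 TPM). DCN, LUM and PDGFRA had groups apart, higher in ALDH_High (edgeR adjusted p from 0.0656 to 0.236), while COL1A1, COL1A2 and the untested THY1 overlapped. Leukocyte markers summed to 3.62 to 7.90 TPM against 1.95 to 3.003 TPM and endothelial markers to 2.89 to 3.02 TPM against 0.501 to 0.614 TPM, with PTPRC, PECAM1, CDH5 and VWF below 1 TPM. Of the 2 leukocyte markers tested, LYZ was higher (4.70 against 1.47 TPM) and CD14 lower (0.196 against 0.784 TPM). Of the 3 endothelial markers tested, KDR was higher (2.57 against 0.200 TPM).

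**Figure D5:**
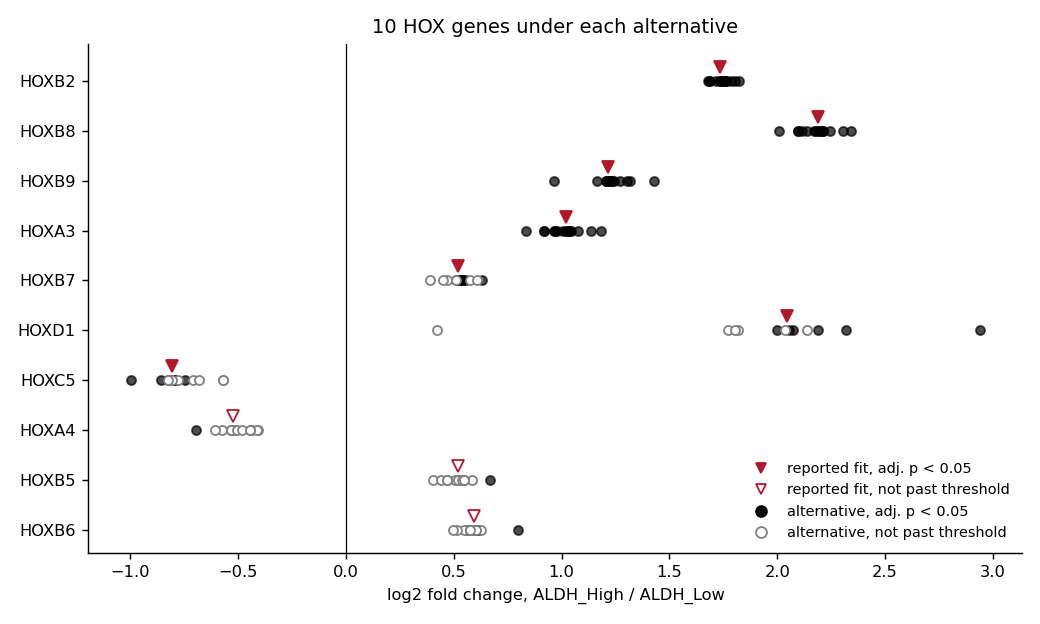
Log2 fold change of 10 HOX members in the reported fit (triangles) and in the alternatives (dots), filled where the adjusted p is below 0.05. HOXB2, HOXB8, HOXB9 and HOXA3 stay filled in all 15 alternatives, whereas HOXB7, HOXD1 and HOXC5 lose the fill in some.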

How the data were processed

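RNA was sequenced from 3 ALDH_High and 3 ALDH_Low libraries of A375 cells. The authors deposited a table of expected counts per gene (whole numbers that act as rounded estimates, since 133 to 177 genes per library have a count of 0 beside a TPM above 0) and a table of TPM values, per the file headers. The submitters' processing notes list FastQC 0.11.3, STAR 2.5.1b, HTSeq 0.6.1, DESeq2 and GRCh38 without roles; the annotation release and the strand setting are not given in the sources used here. The authors' own DESeq2 coefficients were not used.

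Counts were filtered with filterByExpr, scaled with TMM and tested with edgeR 4.0.16 (quasi-likelihood F-test, two-sided, Benjamini-Hochberg over all 17047 genes, threshold 0.05), after the script was tested on simulated data. Standard errors are log2 fold changes divided by the square root of F. Alternatives were other scalings and filters, DESeq2 1.42.0, limma 3.58.1 on log2(TPM + 1) or log2(TPM + 0.1), a replicate block and leaving out each library. Libraries of a group differed by more than sampling noise (chi-square per degree of freedom 13.5 to 56.1). Members given in full are those past the threshold and the 10 with the highest mean TPM; the per-library values of HOXA4, HOXB5, HOXD11 and HOXD12 were added after they were seen, and other members have fold changes or ranges; of other lists, up to 5 past the threshold by smallest p, and members with a role the text needs. Values of 1 member and 1 cofactor are not reported here, though both are in the counts, medians and sums. The members and lists were chosen with earlier results of these data known.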

Additional observations from a re-analysis of the deposited data

How the results depend on the processing

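HOXB2, HOXB8, HOXB9 and HOXA3 passed in all 15 alternatives, and 3 of the 7 called members missed the threshold in at least 1; of the 27 others given here, 23 passed in none. Members called lower numbered 1, against 2 with the replicate block, 0 with limma on log2(TPM + 1) under both filters, 0 at adjusted p below 0.01, 0 at a size minimum of 1 on the log2 scale, and 0 to 2 with a library left out. Lower HOXA calls were 0, against 1 with the block (0 to 1 with a library left out), and lower HOXC calls 1, against 0 with limma on log2(TPM + 1) under both filters (0 to 1). Higher HOXD calls were 1, against 0 with DESeq2 and limma on all genes (0 to 1 with a library left out). They were also 0 with at least 10 counts in every library and in the limma fits with a mean TPM of at least 1. Those filters removed HOXD1, so these zeros are not lost calls. In paralog groups 4 to 8, higher calls were 2, against 1 with upper-quartile factors (1 to 3), and lower calls 1, against 2 with the block and 0 with limma on log2(TPM + 1) (0 to 2). Members called higher ran from 4 to 7 with a library left out.

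Over all genes, higher calls were 1838, against 1155 with limma on all genes, 1060 at adjusted p below 0.01 and 1004 with the size minimum (1306 to 2172 with a library left out). Lower calls were 1675, against 1047, 1051 and 851 in the limma fits, 870 at adjusted p below 0.01 and 954 with the size minimum (1073 without ALDH_High 2 to 2049 without ALDH_High 1). The sign changed for 7 members near 0 and not called: HOXA9 (-0.91 to 0.10 with a library left out), HOXB13 (-0.058 to 0.42), HOXC6 (-0.075 to 0.087; limma 0.020 and 0.021), HOXC11 (upper-quartile -0.0025), HOXD4 (-0.40 to 0.37), HOXD8 (-0.11 to 0.23; upper-quartile -0.033) and HOXD9 (-0.20 to 0.048). The cause was not tested.

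Equal replicate numbers were not taken as pairs: same-numbered libraries correlated in their deviations at 0.15, 0.076 and 0.11, and 6 of 6 libraries correlated best with their own number, a hint from the data. With the replicate block HOXA4 (-0.53, adjusted p = 0.0499) and HOXB6 (0.56, 0.0398) passed in edgeR and no called member was lost. Depth limits HOXD1, HOXD3, HOXD11, HOXD12 and HOXB1.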
